A study of Mus musculus with 384 samples.

Results

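Epithelial cells called cycling and non-cycling by 6 transcripts were compared in mouse mammary glands 1 week after ablation of luminal cells. Cells sorted as hybrid and cells sorted as luminal were treated separately. The cells were chosen by measured values. A cell was called cycling when at least 2 of 6 genes of late S phase, G2 and mitosis (Mki67, Top2a, Cdk1, Ccnb1, Birc5 and Tpx2) reached 50 CPM in that cell (CPM, read counts scaled to the same total of gene reads in every cell), and non-cycling when none of the 6 did. This gave 13 cycling and 63 non-cycling cells of the hybrid gate, and 8 cycling and 64 non-cycling cells of the luminal gate, 148 cells in all. They came from 161 kept cells of these gates and 319 kept cells of the series. The 13 gate cells with exactly 1 of the 6 genes at 50 CPM were set aside.

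All wells, WT included, carry the label K8rtta/TetO-DTA/K5CreER/Rosa-Tomato on a mixed background. In this combination the Krt8 promoter (K8) drives a doxycycline-dependent activator, which turns on the diphtheria toxin A chain (DTA), while Cre in Krt5-promoter (K5) cells leaves a Tomato label in those cells and their progeny. Glands of the ablated groups (hybrid, luminal and basal) had received 0.2 mg of doxycycline into the ducts, and the WT groups (luminal and basal) are labelled as wild type in the treatment field while sharing the same strain label. Tomato-positive cells without CD45, CD31 and CD140a were sorted by CD29 and EpCAM into 1 plate of 384 wells and sequenced with a Smart-seq2 protocol, which reads whole transcripts of single cells. Ages are not given, how the hybrid gate was drawn is not stated, and no animal is named for any cell. Each gate is therefore 1 sample, and all values below describe these cells with no test between them. Intervals are exact 95% intervals that cover counting error only. Those of read levels treat each read as independent. Reads amplified by PCR without molecular identifiers are not independent molecules, so these intervals do not give the uncertainty of a level.

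A dividing cell first raises the enzymes that make deoxynucleotides and load the helicase onto replication origins, then copies its DNA in S phase, and then builds the spindle and kinetochores that separate the chromosomes in mitosis. S-phase genes are classic targets of E2F factors, and mitosis genes are repressed outside the cycle by the DREAM complex, which binds the CHR element, and are activated by B-MYB and FOXM1 in G2. In the mammary gland, basal myoepithelial cells (Krt5, Krt14, Acta2) and luminal cells (Krt8, Krt18, Krt19) normally renew themselves separately, and transplantation or loss of luminal cells can lead basal cells to give luminal progeny.

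Cycling cells were found in both gates after ablation. They made up 13 of 85 kept hybrid cells, or 15.3% (Clopper-Pearson interval 8.4 to 24.7), and 8 of 76 kept luminal cells, or 10.5% (4.66 to 19.7). By this rule none were found among 71 ablated basal cells, 43 WT luminal cells or 44 WT basal cells. Taken as 3 cells of the total, the limit that such a count of 0 allows is 4.23%, 6.98% and 6.82%, and the upper ends of the exact intervals are 5.06%, 8.22% and 8.04%. Cells with exactly 1 marker were 9 of 85 hybrid, 4 of 76 ablated luminal, 4 of 71 ablated basal cells, and none in WT. The groups lay in adjoining lines of the plate, so group and plate position cannot be told apart. Within the hybrid gate, cycling cells were 2 of 17, 4 of 24, 6 of 23 and 1 of 21 kept cells in lines M to P. In the luminal gate they were 3 of 9, 1 of 20, 3 of 23, 1 of 20 and 0 of 4 in lines I to M. The 5 negative control wells held 0 reads of all 6 genes. Wells that received many cells of a gate held few as well: the hybrid one had 20 reads of Birc5 (8.08 CPM) and the ablated luminal one 24 of Top2a (6.83 CPM), each with 0 reads of the other 5 genes.

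**Figure D1:**
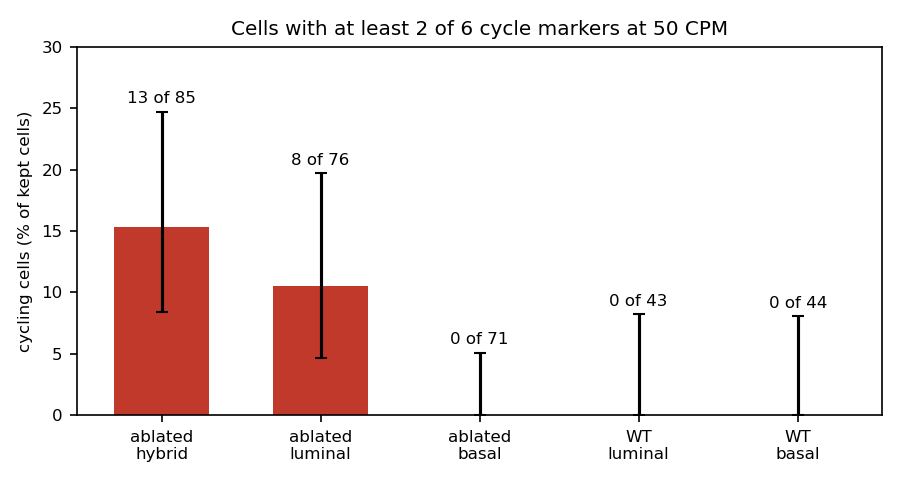
Share of kept cells with at least 2 of 6 cycle markers at 50 CPM (vertical axis, %) in each sorted group, with exact 95% intervals that cover counting error only. The hybrid and luminal gates after ablation stand at 15.3% and 10.5%, and the other groups at 0 with upper interval ends of 5.06% (ablated basal), 8.22% (WT luminal) and 8.04% (WT basal).

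The 6 genes that chose the cells are given as a description. In the hybrid gate, 3 cycling cells carried exactly 2 of the 6 markers, 4 carried 3, 4 carried 4, 1 carried 5 and 1 carried all 6. Among luminal cells these numbers were 1, 3, 1, 2 and 1. Cdk1, the kinase that drives mitosis, ran from 0 to 569 CPM in the 13 hybrid cycling cells (median 180.3), against 0 to 28.1 CPM in the 63 non-cycling cells (median 0). Its range was 4.92 to 1976 CPM in the 8 luminal cycling cells (median 527), against 0 to 21.7 CPM in the 64 non-cycling cells (median 0). Birc5 (survivin), a chromosomal passenger protein, was at or above 58.1 CPM in all 8 luminal cycling cells, with a median of 273 CPM. It was detected in 9 of 13 hybrid cycling cells, counting a gene as detected at 5 of 100000 randomly drawn reads.

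Most cycling cells lacked some of the 6 markers. Mki67, which coats mitotic chromosomes, was present at 3.99 CPM or more in all 13 hybrid cycling cells but at 0 in some luminal ones, and its median was 128 CPM in hybrid and 49.5 CPM in luminal cycling cells. Top2a, the topoisomerase that untangles sister DNA, had medians of 57 CPM in hybrid and 352 CPM in luminal cycling cells. Ccnb1, the mitotic cyclin, and Tpx2, a spindle assembly factor, were detected in 5 of 13 cells each in the hybrid gate and in 4 of 8 each in the luminal gate. At the edge of the rule, the highest marker values of non-cycling cells were 36.4 CPM (Mki67), 30.7 CPM (Mki67) and 30.3 CPM (Top2a) in the hybrid gate, and 25.5 CPM (Birc5), 23.1 CPM (Mki67) and 21.7 CPM (Cdk1) in the luminal gate. Just inside it, the second marker of the cycling cells with exactly 2 markers stood at 57, 100.2 and 382 CPM in the hybrid gate and at 58.1 CPM in the luminal gate.

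Cycling cells held more expressed genes at the same depth. After thinning each cell to 100000 reads, hybrid cycling cells had 4859 to 6783 genes with a read (median 5465), against 2485 to 6689 in hybrid non-cycling cells (median 4440). Luminal cycling cells had 2955 to 5984 genes (median 5155), against 2706 to 5666 in luminal non-cycling cells (median 4259). The ranges overlapped in both gates. Before thinning, the median number of reads in genes was 1419680 per hybrid cycling cell, against 1054290 per non-cycling cell, and 1176920 per luminal cycling cell, against 1078900 per non-cycling cell. Mitochondrial reads were 2.27% against 2.58% at the median in the hybrid gate, and 1.99% against 2.46% in the luminal gate, cycling cells first. No search for wells with more than 1 cell was made. In the groups without cycling cells the median was 2706 genes per ablated basal, 2909 per WT luminal and 2215 per WT basal cell. The part of the gene number in the differences was not tested.

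**Figure D2:**
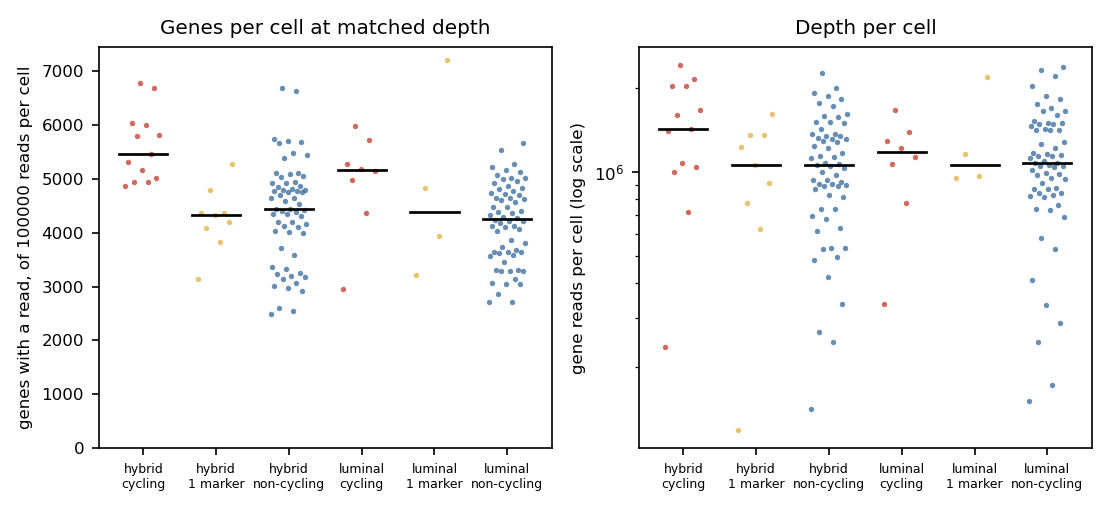
Genes with at least 1 of 100000 drawn reads per cell (left) and reads in genes per cell on a log scale (right), for cycling, 1-marker and non-cycling cells of each gate, with each point 1 cell and each bar the median. At matched depth the medians of cycling and non-cycling cells are 5465 and 4440 genes in the hybrid gate and 5155 and 4259 in the luminal gate, with overlapping ranges.

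For each gene, reads were summed over the cells of a class, scaled to CPM, and compared as the log2 ratio of cycling over non-cycling cells after adding 10 CPM to each. The ratios of genes that were nearly absent from non-cycling cells depend on the 10 CPM added and are not bounds. A ratio can also rest on 1 cell. When the cell holding most of a gene's reads was left out on each side (its top cell), 22 of 104 named genes with a 2-fold ratio moved by more than 1.5-fold in the hybrid gate and 46 of 135 in the luminal gate, and 13 and 16 came under 2-fold. Such values are given beside many of these genes, and the luminal ratios in particular should be read with them. The step removes 1 of 13 or 8 cycling cells but 1 of 63 or 64 non-cycling cells. With it the median ratio of all measured genes was −0.192 in the hybrid and −0.559 in the luminal gate. Ratios without the top cells include this downward shift, so a lower value is not by itself a stronger decrease. Of 11009 genes averaging 5 CPM or more across the 4 classes, 1058 (9.61%) were at least 2-fold higher and 928 (8.43%) at least 2-fold lower in hybrid cycling cells. In luminal cycling cells 1389 (12.6%) were at least 2-fold higher and 2230 (20.3%) at least 2-fold lower. The median ratio over all these genes was 0.01 in the hybrid and −0.14 in the luminal gate. A gene nearly absent from non-cycling cells passes the average of 5 CPM only through its cycling classes. Counts of measured list members therefore favour genes that are higher in cycling cells. The higher genes of the gates shared 324 members, which were 30.6% of the hybrid and 23.3% of the luminal ones. The lower genes shared 277, or 29.8% and 12.4%. Of the 1058 genes higher in the hybrid gate, 164 were lower in the luminal gate, where 20.3% of all genes were lower. Of the 928 genes lower in the hybrid gate, 95 were higher in the luminal gate, where 12.6% of all genes were higher. Both counts of opposite genes lie under these shares.

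Genes of DNA replication were higher in cycling cells of both gates. Among 32 measured genes of origin licensing and the replication fork, 29 were at least 2-fold higher in the hybrid gate, where 9.61% of all genes were, and 29 in the luminal gate, where 12.6% were. None of the 32 were 2-fold lower. The list has 35 members, and those not measured were Gins3, Orc1 and Fen1, with hybrid ratios of 1.32, 0.313 and −0.135. The list's median log2 ratio was 1.62 in the hybrid and 2.6 in the luminal gate. Reads of the whole list came to 3354 CPM in hybrid cycling cells, against 791 CPM in non-cycling cells, and to 6931 CPM in luminal cycling cells, against 857 CPM in non-cycling cells. Mcm3, a subunit of the replicative helicase, had a ratio of 3.66 in the hybrid and 3.53 in the luminal gate. Per cell, it ran from 0 to 1175 CPM in hybrid cycling cells (median 6.49), against 0 to 360.5 CPM in non-cycling cells (median 0). In luminal cycling cells it ran from 1.54 to 1067 CPM (median 344), against 0 to 818 CPM in non-cycling cells (median 0). The classes overlapped in both gates, and in the hybrid gate Mcm3 was concentrated in the 4 of 13 cycling cells that detected it.

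Most other helicase and fork genes moved the same way. Cdc45, which joins the helicase to the MCM ring, had ratios of 3.25 (hybrid) and 3.59 (luminal). Prim1, the primase subunit that starts each new strand, had ratios of 3.01 and 4.74. Its summed level was 217 CPM in hybrid cycling cells (Poisson interval 210.2 to 224), against 18.2 CPM (17.2 to 19.3) in non-cycling cells, and 462 CPM in luminal cycling cells (448 to 476), against 7.62 CPM (7.0 to 8.28) in non-cycling cells. These intervals leave out the spread between cells: 1 cell held 51.6% of the Prim1 reads of hybrid cycling cells and 1 held 55.4% of those of luminal cycling cells. Gmnn (geminin), which blocks re-licensing after S phase begins, was detected in all 8 luminal cycling cells at 82.2 to 911 CPM, against 0 to 458 CPM in non-cycling cells, and 1 of 64 non-cycling cells exceeded the cycling median. Rpa2, a single-strand DNA binding subunit, had ratios of 2.46 and 4.03, and all 8 luminal cycling cells lay above the non-cycling median of 0. Pole2, a DNA polymerase epsilon subunit, stood at −0.82 in the hybrid and 1.5 in the luminal gate. Mcm10 reached 3.61 in the luminal gate, but without the top cell of each class it was 0.71. In the hybrid gate these values were 1.33 and 0.66.

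Enzymes of deoxynucleotide supply followed. Of 20 measured genes, 10 were at least 2-fold higher in the hybrid gate (median ratio 1.09) and 13 in the luminal gate (median 1.91), and none were 2-fold lower. Among all genes, 9.61% and 12.6% were higher in these gates. Rrm1 and Rrm2 are the subunits of ribonucleotide reductase. Rrm1 was detected in all 8 luminal cycling cells at 187 to 710 CPM (median 434), against 7 of 64 non-cycling cells, which ran from 0 to 519 CPM (median 0.93). In the hybrid gate it ran from 1.2 to 932 CPM in cycling cells (median 106.5), against 0 to 417 CPM in non-cycling cells (median 0). All cycling cells of both gates lay above the non-cycling median of Rrm1, although the ranges overlapped. Rrm2 had ratios of 3.87 and 4.72. It was detected in 7 of 13 hybrid and 6 of 8 luminal cycling cells, against 2 of 63 and 3 of 64 non-cycling cells. Thymidylate synthase (Tyms) had ratios of 2.32 and 3.92, and thymidine kinase (Tk1) 2.97 and 4.29.

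Chromatin assembly genes of S phase were higher as well, 13 of 21 measured genes by at least 2-fold in the hybrid gate (median ratio 1.29) and 18 of 21 in the luminal gate (median 1.74). The shares of all genes were 9.61% and 12.6%. Chaf1b, a subunit of the factor that places histones behind the fork, had ratios of 2.99 and 3.17. Uhrf1, which carries DNA methylation through replication, stood at 72 CPM in hybrid cycling cells, against 6.28 CPM in non-cycling cells, and at 82.2 CPM in luminal cycling cells, against 3.21 CPM in non-cycling cells. Asf1b, Hells and Atad2, a histone chaperone, a chromatin remodeller and a chromatin-bound ATPase, had ratios from 1.69 to 2.44 in the hybrid and from 2.46 to 2.70 in the luminal gate.

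Mitosis genes outside the 6 markers were higher too, in both gates and in every class of the machinery. Among kinetochore, centromere and condensin genes, 25 of 27 were at least 2-fold higher in each gate (median ratio 2.27 in the hybrid and 2.75 in the luminal gate). Among spindle, kinesin and cytokinesis genes it was 25 of 30 in the hybrid (1.74) and 27 of 30 in the luminal gate (2.17). Among mitotic kinases, cyclins and anaphase genes it was 20 of 28 (1.71) and 23 of 28 (2.6). No measured gene of these 3 lists was 2-fold lower in either gate. The lists have 28, 34 and 28 members, and those under the average of 5 CPM are not counted. Among all genes, 9.61% were higher and 8.43% lower in the hybrid gate, and 12.6% and 20.3% in the luminal gate.

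**Figure D3:**
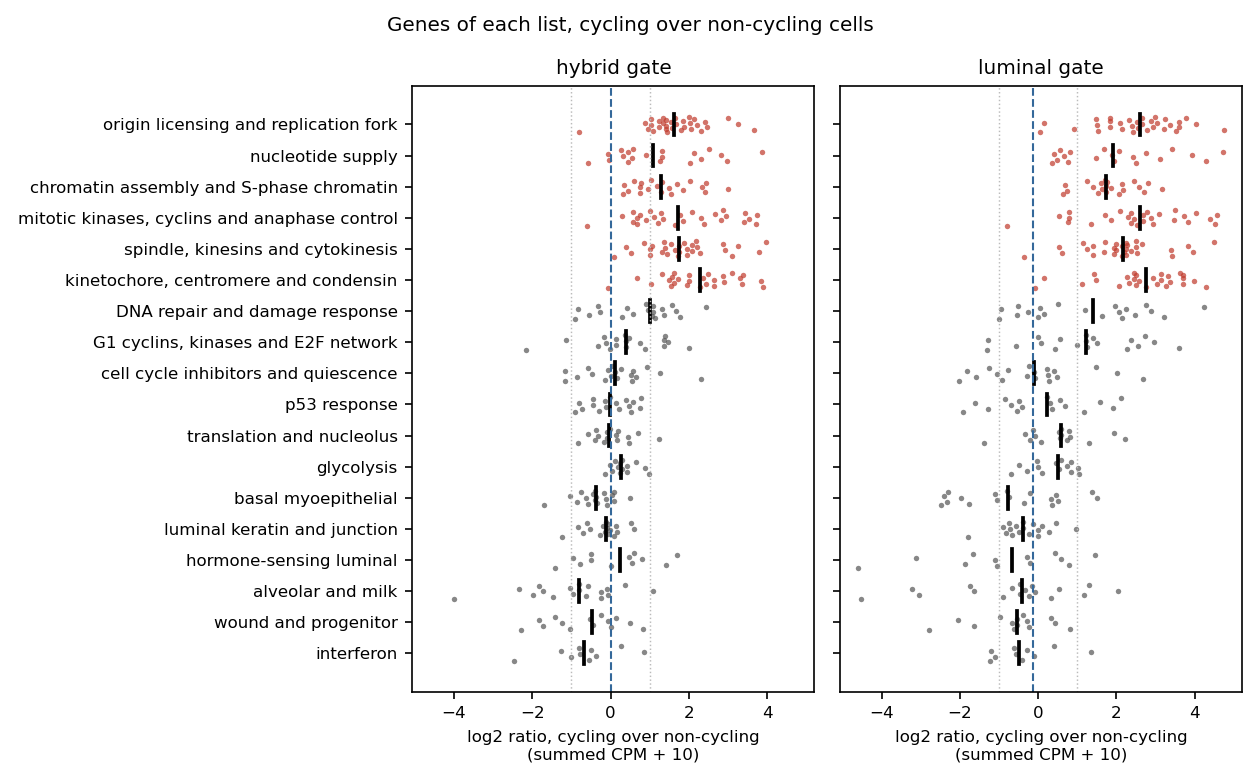
Log2 ratios of cycling over non-cycling cells (summed CPM + 10) for the measured genes of each list in the hybrid (left) and luminal (right) gate, with each point 1 gene, each black bar the list median, the dashed line the median of all measured genes and dotted lines 2-fold. The 6 lists of the replication and mitosis machinery (red) have medians from 1.09 to 2.27 in the hybrid and 1.74 to 2.75 in the luminal gate, and the basal, luminal keratin and alveolar lists lie below the all-gene medians of 0.01 and −0.14.

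Racgap1, which forms the central spindle complex that positions the cleavage furrow, separated the hybrid classes most fully among the named genes outside the rule. It ran from 0 to 509 CPM in 13 hybrid cycling cells (median 114), against 0 to 7.09 CPM in 63 non-cycling cells (median 0), and 12 of the 13 lay above every non-cycling cell. In the luminal gate it ran from 0 to 690 CPM in cycling cells (median 67), against 0 to 78.4 CPM in non-cycling cells (median 0), with 3 of 8 above every non-cycling cell. Its ratios were 3.96 and 4.49. Hmmr, a spindle-associated receptor of hyaluronan, exceeded every non-cycling cell in 10 of 13 hybrid and 4 of 8 luminal cycling cells, and its ratios were 3.09 and 2.50 (1.04 in the luminal gate without the top cell of each class). Cenpe, the kinetochore motor, did so in 8 of 13 and 1 of 8, with a ratio of 3.36 in each gate.

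Further mitosis genes differed in how many cells carried them. Cdca3, a trigger of mitotic entry, had ratios of 3.89 and 4.29 and was detected in 8 of 13 hybrid and 5 of 8 luminal cycling cells, against 3 of 63 and 1 of 64 non-cycling cells. Cenpa, the centromeric histone H3, stood at 513 CPM in hybrid cycling cells, against 26.3 CPM in non-cycling cells (ratio 3.85), and at 318 CPM in luminal cycling cells, against 22.8 CPM in non-cycling cells (3.32). The luminal ratio of Cenpa was 2.12 without the top cell of each class. Ccna2, the cyclin of S phase and G2, had ratios of 2.31 and 4.52. In luminal non-cycling cells only 3 reads of Ccna2 were counted in all. Cdc20, an activator of the anaphase-promoting complex, and Ube2c, its ubiquitin-conjugating enzyme, had ratios of 3.53 and 3.71 in the hybrid and 3.50 and 4.38 in the luminal gate. Melk and Pbk, mitotic kinases, had 3.74 and 3.44 in the hybrid and 3.48 and 4.57 in the luminal gate. Aurkb, the kinase of the chromosomal passenger complex, had 2.82 and 4.02. Spag5, a spindle protein, stood at 0.09 in the hybrid and 3.95 in the luminal gate (2.65 without the top cells), and Tacc3, which bundles spindle microtubules, at 3.79 and 1.68. These differences between gates were not tested.

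Promoters of 4 genes are shown to set the genes with large ratios beside short elements known from promoters of S-phase and mitosis genes. They are the pair with the largest ratios shared by both gates in each group of lists, from the genes with an entry in the table of mouse promoters (RefSeq, GRCm38.p6, 300 bases around the transcription start, read 5′ to 3′ on the gene's strand). Capitals mark CCAAT boxes (CCAAT), CHR elements (TTTGAA) and E2F sites (TTTCCCGC or TTTGGCGC), searched on both strands. The S-phase genes are Rrm2 (plus strand, chr12:24708004-24708303) and Mcm3 (minus strand, chr1:20820263-20820562).
Rrm2: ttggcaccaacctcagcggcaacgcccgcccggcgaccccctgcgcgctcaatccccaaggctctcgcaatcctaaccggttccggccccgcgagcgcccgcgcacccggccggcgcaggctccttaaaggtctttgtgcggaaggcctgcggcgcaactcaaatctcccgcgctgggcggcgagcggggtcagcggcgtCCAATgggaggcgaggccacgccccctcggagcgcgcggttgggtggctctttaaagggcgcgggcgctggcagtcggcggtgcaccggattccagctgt
Mcm3: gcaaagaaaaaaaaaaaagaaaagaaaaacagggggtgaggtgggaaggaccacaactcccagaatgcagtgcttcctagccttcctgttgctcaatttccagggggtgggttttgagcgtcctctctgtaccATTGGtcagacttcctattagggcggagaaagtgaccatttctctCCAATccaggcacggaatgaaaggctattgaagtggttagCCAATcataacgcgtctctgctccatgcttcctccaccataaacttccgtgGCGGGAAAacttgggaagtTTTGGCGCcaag
The mitosis genes are Racgap1 (minus strand, chr15:99651607-99651906) and Cdca3 (plus strand, chr6:124829926-124830225).
Racgap1: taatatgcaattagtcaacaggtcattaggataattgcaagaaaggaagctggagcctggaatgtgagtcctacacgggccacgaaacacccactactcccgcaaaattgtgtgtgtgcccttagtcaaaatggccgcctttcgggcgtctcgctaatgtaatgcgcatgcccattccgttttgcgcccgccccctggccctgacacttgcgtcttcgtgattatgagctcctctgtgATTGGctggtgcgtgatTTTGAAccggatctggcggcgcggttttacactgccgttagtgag
Cdca3: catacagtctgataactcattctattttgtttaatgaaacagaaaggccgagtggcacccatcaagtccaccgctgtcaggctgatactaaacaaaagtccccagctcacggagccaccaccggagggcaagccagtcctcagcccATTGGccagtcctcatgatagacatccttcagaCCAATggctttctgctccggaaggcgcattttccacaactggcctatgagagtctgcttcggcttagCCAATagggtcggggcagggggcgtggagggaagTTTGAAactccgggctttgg

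The Mcm3 promoter held 3 CCAAT boxes and both forms of the E2F site, and that of Rrm2 held 1 CCAAT box. Racgap1 had 1 CCAAT box and 1 CHR, and Cdca3 had 3 CCAAT boxes and 1 CHR, both CHRs lying just inside the transcript. Over the 3 mitosis lists, 48 of 75 promoters (64%) held a CHR, against 13 of 63 promoters (20.6%) of the 3 S-phase lists, 11.4% of 8596 promoters of measured genes and 18.1% of 27025 promoters in the table. A CHR together with a CCAAT box was found in 52% of mitosis-list, 15.9% of S-phase-list and 4.69% of measured-gene promoters. Either E2F site was found in 6 of 75 mitosis-list (8%) and 16 of 63 S-phase-list promoters (25.4%), against 3.4% of measured-gene promoters. Within the S-phase group the share was highest in origin licensing and fork genes, at 12 of 27 (44.4%). A match is only a run of letters, and a promoter with no match lacks these letters in this window.

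Cells of a class differed in which part of the cycle their genes came from. The 3 S-phase lists and the 3 mitosis lists, both without the 6 markers, were summed per cell. Hybrid cycling cells had S-phase sums of 1649 to 19973 CPM (median 5272), against 1062 to 5654 CPM in non-cycling cells (median 2308). Their mitosis sums ran from 2407 to 15255 CPM (median 9793), against 319 to 7501 CPM in non-cycling cells (median 1632). Of 13 hybrid cycling cells, 6 exceeded every non-cycling cell in the S-phase sum and 8 did so in the mitosis sum. Luminal cycling cells had S-phase sums of 5788 to 23816 CPM (median 15377), against 916 to 12691 CPM (median 2301), and mitosis sums of 4124 to 20328 CPM (median 10664), against 716 to 7358 CPM (median 1662). Of 8 luminal cycling cells, 5 and 6 exceeded every non-cycling cell in the S-phase and the mitosis sum. Groups without cycling cells had S-phase sums of up to 7999 CPM (ablated basal), 4741 CPM (WT luminal) and 8302 CPM (WT basal). Their mitosis sums reached 6220, 3360 and 6336 CPM, in the same order. These sums reach into the range of the hybrid cycling cells.

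Neighbouring patterns showed within each gate. Hybrid cell 20 had an S-phase sum of 10434 CPM and a mitosis sum of 3833 CPM, while hybrid cell 1 had 5272 and 14735 CPM. Luminal cell 51 had 16112 and 4124 CPM, while luminal cell 40, the 1 luminal cell with all 6 markers, had 5788 and 20328 CPM. The sums are not divided by gene length, so they rank cells against each other and do not compare the phases. Hybrid cells 44, 45 and 68, which carried exactly 2 markers, had mitosis sums of 2407, 5533 and 4032 CPM, inside the range of non-cycling cells. Among non-cycling cells, luminal cell 56 had the highest S-phase sum, 12691 CPM, with 20.4 CPM of the 6 markers together, and luminal cell 52 had 9009 CPM with 2.6 CPM of the markers. The 6 markers were taken as genes of late S phase and after, so the rule can miss cells in G1 or early S phase.

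**Figure D4:**
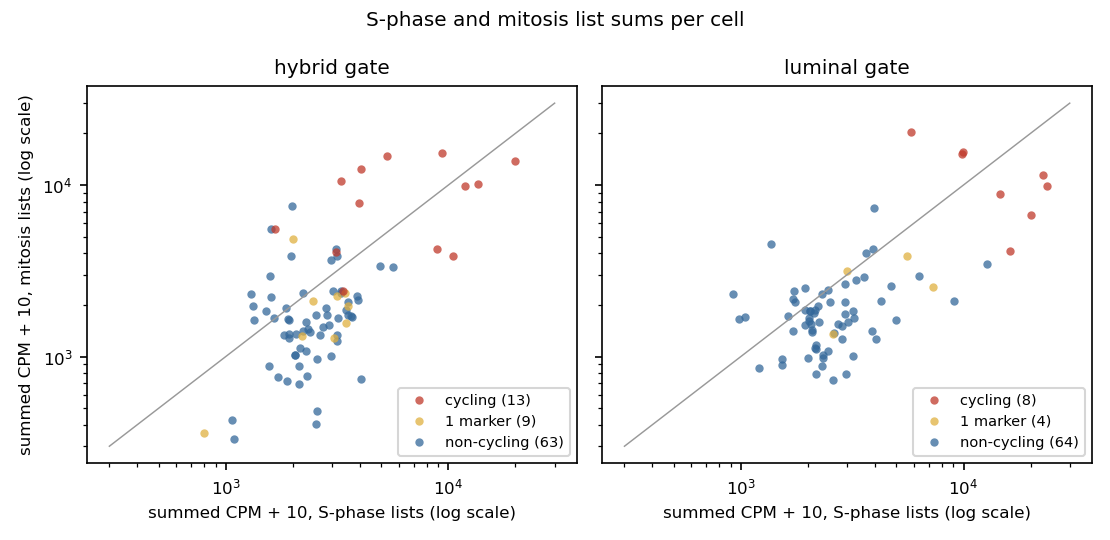
Summed CPM + 10 of the S-phase lists (horizontal, log scale) and of the mitosis lists (vertical, log scale) in each kept cell of the hybrid (left) and luminal (right) gate, with the line marking equal sums. Cycling cells lie to the upper right, with median S-phase and mitosis sums of 5272 and 9793 CPM (hybrid) and 15377 and 10664 CPM (luminal), and luminal non-cycling cell 56 lies among them in the S-phase sum at 12691 CPM.

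Regulators of entry into the cycle were less uniform. Of 19 measured G1 cyclins, kinases and E2F network genes, 5 were at least 2-fold higher and 2 at least 2-fold lower in hybrid cycling cells (median ratio 0.38), and 12 were higher and 2 lower in luminal cycling cells (1.22). Of all genes, 9.61% were higher and 8.43% lower in the hybrid gate, and 12.6% and 20.3% in the luminal gate. The lower counts are thus not above the luminal share and are near the hybrid share. Cyclin D1 (Ccnd1), which starts G1 progression, ran from 5.96 to 1181 CPM in luminal cycling cells (median 593), against 0 to 1073 CPM in non-cycling cells (median 84.8), a ratio of 1.5. In the hybrid gate it ran from 0 to 366.5 CPM in cycling cells (median 55.9), against 0 to 1262 CPM in non-cycling cells (median 7.6), and the ratio of sums was 0.13. E2f1, Mybl2 (B-MYB) and Foxm1, which activate S-phase and mitosis genes, had ratios of 2.96, 3.59 and 2.73 in the luminal gate and 0.46, 0.14 and 0.87 in the hybrid gate. Tfdp1, the partner of E2F proteins, had ratios of 1.37 (0.63 without the top cell of each class) and 1.40. Without the top cells the luminal ratio of Mybl2 was 2.49.

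Myc was lower in both gates and Cdk6 in the hybrid gate. Myc, a growth-promoting transcription factor, stood at 146 CPM in hybrid cycling cells, against 331 CPM in non-cycling cells (ratio −1.13), and at 89.3 CPM in luminal cycling cells, against 235 CPM in non-cycling cells (−1.30). Per cell its medians were 38.5 against 160.5 CPM in the hybrid gate and 40.2 against 90.3 CPM in the luminal gate, cycling cells first, with overlapping ranges. Cdk6, a G1 kinase, was detected in 2 of 13 hybrid cycling cells, against 27 of 63 non-cycling cells, with a ratio of −2.16. Its luminal ratio was −0.57.

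Cell cycle inhibitors and quiescence genes had median ratios of 0.11 in the hybrid and −0.12 in the luminal gate, near the all-gene medians. Of 19 measured, 2 were at least 2-fold higher and 2 lower in the hybrid gate, and 3 higher and 5 lower in the luminal gate, shares close to those of all genes (9.61% and 8.43% in the hybrid, 12.6% and 20.3% in the luminal gate). Cdkn1a (p21), the p53-induced inhibitor, had 443.5 CPM in hybrid cycling cells, against 393 CPM in non-cycling cells, and 543 CPM in luminal cycling cells, against 445 CPM in non-cycling cells. It was detected in 12 of 13 and 7 of 8 cycling cells. Rbl1 (p107), a pocket protein that is itself a known E2F target, had ratios of 2.30 (1.52 without the top cells) and 2.68. Gas1, a growth arrest gene, had −1.17 and −2.01, and Btg2, an antiproliferative gene, −0.47 and −1.83 (−3.19 in the luminal gate without the top cell of each class). Txnip, which limits glucose uptake, stood at 0.03 and 2.02, and at −0.72 and 1.18 without the top cells.

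Part of the DNA repair list was higher. Of 20 measured, 10 were at least 2-fold higher in the hybrid gate (median ratio 1.00) and 11 in the luminal gate (1.41), and none were 2-fold lower. Among all genes 9.61% were higher and 8.43% lower in the hybrid gate, and 12.6% and 20.3% in the luminal gate. Brca1, a gene of homologous recombination, had ratios of 1.76 and 1.63, and Chek1, the replication checkpoint kinase, 1.36 and 2.47. The luminal ratios of Blm and Fanci, which act in recombination and crosslink repair, were 2.88 and 2.76, and 1.16 and 1.35 without the top cell of each class. Their hybrid ratios were 1.05 and 1.08, and 0.96 and 0.26 without the top cells. Atm and Chek2, the kinases of the double-strand break response, stood at −0.92 and −0.84 in the hybrid and −0.95 and −1.0 in the luminal gate. The p53 response list had medians of −0.01 and 0.23, with 0 of 17 genes 2-fold higher or lower in the hybrid gate and 4 higher and 3 lower in the luminal gate, where 12.6% and 20.3% of all genes were.

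Genes outside the 6 replication and mitosis lists and higher in both gates were led by Pclaf, a PCNA-binding factor, with ratios of 3.16 and 3.86. Pclaf ran from 0.63 to 583 CPM in hybrid cycling cells (median 67.1), against 0 to 128 CPM in non-cycling cells (median 0), and from 0 to 362 CPM in luminal cycling cells (median 207.5), against 0 to 254 CPM in non-cycling cells (median 0). All 13 hybrid and 7 of 8 luminal cycling cells exceeded the non-cycling median. Iqgap3, a scaffold protein of the IQGAP family, had ratios of 2.94 and 3.37, and exceeded every non-cycling cell in 7 of 13 and 5 of 8 cycling cells. Next were Tcf19 (2.92 and 2.69), a nuclear protein, Zwilch (2.66 and 2.80), a kinetochore checkpoint protein, and Dnajc9 (2.49 and 2.94), a histone-binding co-chaperone. Zfp367 (2.33 and 3.10), a zinc finger factor, was detected in all 8 luminal cycling cells, against 9 of 64 non-cycling cells. Haus4 and Haus8, subunits of the augmin complex that branches spindle microtubules, had 2.6 and 2.08 in the hybrid and 2.03 and 3.92 in the luminal gate. The Haus8 ratio in the luminal gate was 2.01 without the top cell of each class. Dcaf15, a ubiquitin ligase receptor, had 2.14 and 2.63.

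Outside the 6 replication and mitosis lists, 8 genes met the same conditions in the lower direction. Prkcd, a protein kinase C isoform, had 32.3 CPM in hybrid cycling cells, against 125 CPM in non-cycling cells (ratio −1.68), and 10.0 CPM in luminal cycling cells, against 66.4 CPM in non-cycling cells (−1.93). Cp (ceruloplasmin), a copper-carrying ferroxidase, ran from 1.97 to 1104 CPM in hybrid cycling cells (median 38), against 0 to 1424 CPM in non-cycling cells (median 205), and 48 of 63 non-cycling cells lay above the cycling median. In the luminal gate its medians were 3.29 CPM in cycling and 79.3 CPM in non-cycling cells, and its ratios were −1.49 and −1.92 (−2.28 and −2.86 without the top cells). Ankrd11, a chromatin regulator, had −1.31 and −1.51, and Klf9, a glucocorticoid-responsive factor, −0.83 and −2.13. Dsg2, a desmosomal cadherin, had −0.88 and −0.90. The rest were Cemip2, a hyaluronidase of the cell surface (−0.54 and −0.89), Ctsf, a lysosomal protease (−1.20 and −0.50), and Gas6, a growth arrest ligand (−0.85 and −0.27). Without the top cell of each class the luminal ratios of Ctsf and Gas6 were −3.41 and −4.57.

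Basal and luminal identity genes were present in the cycling cells of the hybrid gate together. Krt14 and Krt18 were both detected in 12 of 13 cycling (92.3%, 64 to 99.8) and 59 of 63 non-cycling hybrid cells (93.7%, 84.5 to 98.2). Krt5 and Krt8 were both detected in 12 of 13 cycling (92.3%, 64 to 99.8) and 42 of 63 non-cycling hybrid cells (66.7%, 53.7 to 78). In the luminal gate the first pair was found in 5 of 8 cycling and 44 of 64 non-cycling cells and the second in 3 of 8 and 14 of 64. With 13 and 8 cycling cells such intervals are wide, and their overlap does not show that the classes are alike.

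Levels of Krt8, Krt14, Krt18 and Acta2 differed less than the spread between cells. Acta2, the smooth muscle actin of myoepithelial cells, ran from 1624 to 22740 CPM in hybrid cycling cells (median 7539), against 39.9 to 29030 CPM in non-cycling cells (median 4399), and the ratio of sums was 0.07. In the luminal gate the Acta2 ratio was −1.76, and −2.67 without the top cells, with 4 of 8 cycling cells above the non-cycling median. Krt14, the basal keratin, ran from 17.7 to 8102 CPM in hybrid cycling cells (median 1278), against 25.9 to 17390 CPM in non-cycling cells (median 2012), a ratio of −1.05. Krt8, the luminal keratin whose promoter drives the ablation, ran from 81 to 4294 CPM in hybrid cycling cells (median 1933), against 6.68 to 8866 CPM in non-cycling cells (median 1506), a ratio of −0.07. Krt8 ran from 307 to 9450 CPM in luminal cycling cells (median 2010), against 57.7 to 11330 CPM in non-cycling cells (median 3676), a ratio of −0.39. Luminal cell 20 held 52.1% of these cycling reads, and without the top cells the ratio was −1.11. Krt18, its partner, had medians of 2957 CPM in luminal cycling cells, against 5957 CPM in non-cycling cells, and 51 of 64 non-cycling cells exceeded the cycling median. Its luminal ratio was −0.89, and −1.67 without the top cells. Luminal cycling cells 1, 40 and 58 had Krt18 at 1002, 918 and 875 CPM, with Krt14 at 6786, 12333 and 15842 CPM. The other luminal cycling cells had Krt18 from 2360 to 11357 CPM and Krt14 from 19.5 to 832 CPM. Non-cycling cells high in Krt14 were present too, for example luminal cell 38 at 37055 CPM. Ranges overlapped in each case. Epcam, the epithelial adhesion molecule used for the sort, had ratios of 0.52 in the hybrid and −0.66 in the luminal gate.

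**Figure D5:**
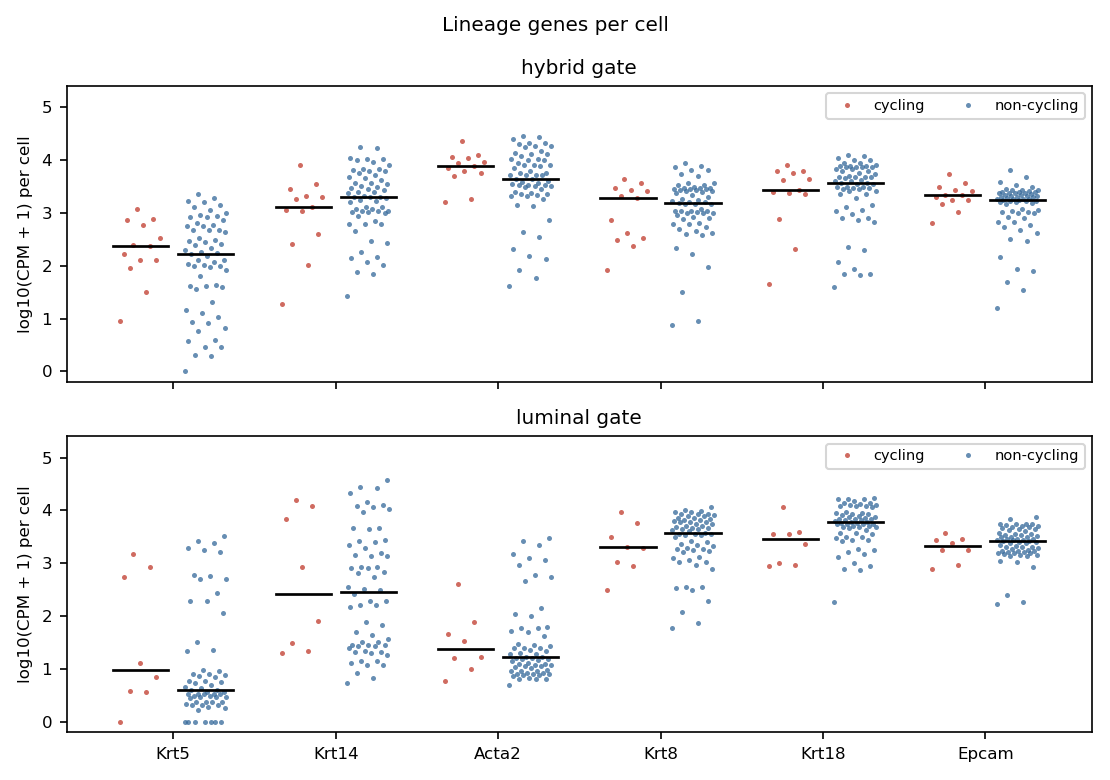
CPM + 1 per cell on a log10 scale for 6 lineage genes in cycling and non-cycling cells of the hybrid (top) and luminal (bottom) gate, with each point 1 cell and each bar the median. The classes overlap for every gene, for example Krt8 at 81 to 4294 CPM in hybrid cycling cells and 6.68 to 8866 CPM in hybrid non-cycling cells.

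As a list, 18 basal myoepithelial genes had a median ratio of −0.38 in the hybrid gate, with 0 genes 2-fold higher and 2 lower, and −0.78 in the luminal gate, with 2 higher and 8 lower, where 20.3% of all genes were lower. Krt17, a keratin of basal and stressed epithelium, was at −0.39 in the hybrid and −2.41 in the luminal gate. Sparc, a matrix protein of basal cells, and Cxcl14, a chemokine, were at −0.41 and −0.86 in the hybrid and −2.30 and −2.34 in the luminal gate. Other members did not follow, and 6 of the 18 luminal ratios were above 0. Krt5 and Krt14 were at 0.52 and 0.32 in the luminal gate, and at −0.09 and 0.03 without the top cell of each class. The summed basal list ran from 303 to 20097 CPM in luminal cycling cells (median 1505), against 30.3 to 54738 CPM in non-cycling cells (median 1737), and the classes overlapped. The 18 luminal keratin and junction genes had medians of −0.11 and −0.39. Cldn4, a tight junction protein, was the 1 member 2-fold lower in the luminal gate (−1.80), and Kit, the receptor of luminal progenitors, the 1 in the hybrid gate (−1.23). The shares of all genes that were lower are 20.3% in the luminal and 8.43% in the hybrid gate.

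Genes of differentiated luminal function were mixed and spread widely. Of 18 measured alveolar and milk genes, 7 were at least 2-fold lower and 1 higher in hybrid cycling cells (median ratio −0.81, against 8.43% of all genes lower), and 5 lower and 3 higher in luminal cycling cells (−0.40, against 20.3%). Ltf (lactoferrin) had 19.5 CPM in hybrid cycling cells, against 460 CPM in non-cycling cells (−3.99), and was detected in 1 of 13 and 15 of 63 cells. Its luminal ratio was −0.16, and −5.75 without the top cell of each class, and luminal cell 20 held most of its reads among cycling cells. Csn2 (beta-casein) ran from 0 to 7819 CPM in hybrid cycling cells (median 2.33), against 0 to 101300 CPM in non-cycling cells (median 12.6). Btn1a1, a milk fat globule protein, had ratios of −0.97 and −3.04. Elf5, the factor of alveolar progenitors, had −0.63 and −0.47.

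Hormone-sensing genes had median ratios of 0.23 in the hybrid and −0.66 in the luminal gate, beside all-gene medians of 0.01 and −0.14. In the luminal gate 6 of 12 were at least 2-fold lower and 1 higher (20.3% and 12.6% of all genes), and in the hybrid gate 1 was lower and 2 higher (8.43% and 9.61%). Esr1, the estrogen receptor, stood at 51.7 CPM in hybrid cycling cells, against 77.7 CPM in non-cycling cells, and at 43.2 CPM in luminal cycling cells, against 103 CPM in non-cycling cells. It was detected in 5 of 13 hybrid and 2 of 8 luminal cycling cells, against 18 of 63 and 17 of 64 non-cycling cells. Its luminal ratio was −1.09, and −2.24 without the top cell of each class. Pgr, the progesterone receptor, was detected in 0 of 13 and 2 of 8 cycling cells, against 6 of 63 and 16 of 64 non-cycling cells. Foxa1, a pioneer factor of hormone-sensing cells, had a ratio of 0.59 in both gates. Ly6a (Sca-1), a surface protein, had 1.41 and 1.45, and reads of the related Ly6 genes could be shared with it.

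Wound and progenitor genes were not higher in cycling cells. Of 14 measured, 0 were 2-fold higher in either gate, and 6 were 2-fold lower in the hybrid (median −0.49) and 3 in the luminal gate (−0.54). Of all genes 8.43% were lower in the hybrid and 20.3% in the luminal gate, so the luminal count is near the share of all genes. Krt15, a progenitor keratin, ran from 5.99 to 1433 CPM in hybrid cycling cells (median 86.5), against 0 to 8329 CPM in non-cycling cells (median 234), a ratio of −1.72. Lgr5, the R-spondin receptor, had −1.43 and −2.79 and was detected in 2 of 13 and 0 of 8 cycling cells, against 16 of 63 and 15 of 64 non-cycling cells. Itga6 (CD49f), an integrin of basal and progenitor cells, had 0.00 in the hybrid and −2.06 in the luminal gate, and 0 of 8 luminal cycling cells exceeded the non-cycling median of 208 CPM. Sox9, a transcription factor of mammary progenitors, had −0.45 and −0.66. Krt6a, whose reads cannot be told from those of Krt6b with certainty, had 0.84 and −0.54, and in the hybrid gate −0.03 without the top cell of each class.

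Among genes at 50 CPM or more in non-cycling cells, detected in at least 25% of them, and in a percentage of them that exceeded that of cycling cells by 20 points or more, the lowest ratios of the hybrid gate belonged to Cytip, a cytohesin-binding protein (−2.94), Kcnh1, a potassium channel (−2.86), Mzt2, a gamma-tubulin complex protein (−2.70), and Wnt5b, a noncanonical Wnt ligand (−2.55). Each was detected in 0 of 13 cycling cells and in 17 to 25 of 63 non-cycling cells. Acadsb, Cyp2d22, Casp12, Mbip, Wdsub1 and Maob followed under these conditions, from −2.40 to −2.27. Under the same conditions the lowest of the luminal gate were Ccn1 (−4.80), Sectm1b (−4.51), R3hdml (−4.26), Apoe (−3.98) and Osmr (−3.94). Ccn1, a secreted matrix protein, ran from 4.1 to 180.5 CPM in luminal cycling cells (median 13.6), against 1.34 to 12850 CPM in non-cycling cells (median 239). Osmr, the oncostatin M receptor, ran from 0 to 25.6 CPM in luminal cycling cells (median 1.24), against 0 to 4228 CPM in non-cycling cells (median 111), and 57 of 64 non-cycling cells exceeded the cycling median. In the hybrid gate Ccn1 and Osmr stood at 0.19 and −0.26, and Ccn1 at −0.95 without the top cells, as hybrid cell 60 held 64.9% of its reads in cycling cells. Creb3l2, Fbp1, Thbs1, Krt23 and Bfar followed in the luminal gate, from −3.65 to −3.35.

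Markers of other cell types moved with the classes in places. The 10 immune markers summed to 66.1 CPM in hybrid cycling cells, against 301 CPM in non-cycling cells, and to 11.6 CPM in luminal cycling cells, against 129 CPM in non-cycling cells. Per cell they ran from 0 to 627 CPM in hybrid cycling cells, against 0 to 4475 CPM in non-cycling cells, and from 0 to 54.8 CPM in luminal cycling cells, against 0 to 2712 CPM in non-cycling cells. Of the 10 genes, 3 were at 0 in hybrid cycling cells, 2 in hybrid non-cycling, 6 in luminal cycling and 3 in luminal non-cycling cells. Hemoglobin and other erythroid genes came to 4.69 CPM in hybrid cycling cells, against 1118 CPM in non-cycling cells, and nearly all of it lay in hybrid cell 5. Fibroblast markers summed to 792 CPM in hybrid cycling cells, against 562 CPM in non-cycling cells, and to 96.5 CPM against 135 CPM in the luminal gate, cycling cells first. Per cell, fibroblast markers reached 2246 CPM in hybrid cycling and 3970 CPM in hybrid non-cycling cells, and 383 and 2965 CPM in the luminal gate. Summed endothelial, pericyte, adipocyte and skin keratinocyte markers stayed at or below 56.4 CPM in each class. In single cells they reached 445, 438, 358 and 380 CPM. No cell was left out for any of these markers. Without the cells at 1000 CPM or more of immune or erythroid markers, 13 cycling and 59 non-cycling hybrid and 8 cycling and 62 non-cycling luminal cells remained. The numbers of 2-fold higher and lower genes were then 1062 and 947 in the hybrid and 1390 and 2237 in the luminal gate.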

How the data were processed

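Single-cell RNA was measured in 1 plate of 384 wells. The authors deposited raw read counts per gene, whole numbers for 49585 gene IDs with no normalization, and 92 spike-in sequences that held 11 reads in all and were not used. Per the submitters' processing notes, cutadapt 1.13, STAR 2.5.2b, HTSeq 0.6.0 and Seurat were used with GRCm38. The annotation version and the strand setting of the counting are not given in the sources used here, so antisense and overlapping genes, and near-identical copies of a gene, are uncertain. Symbols and coordinates came from GENCODE M21 on GRCm38, which named 49326 of the IDs (66 symbols are shared by several IDs), and promoters from RefSeq on GRCm38.p6.

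A well was kept when 100000 or more reads fell in genes, 1000 or more genes had a read and mitochondrial reads did not pass 20%, which left 319 of 374 single-cell wells, with 118310 to 3835005 reads each. Reads were then summed per class, for totals of 18778121 (hybrid cycling), 68171464 (hybrid non-cycling), 8873096 (luminal cycling) and 72840892 (luminal non-cycling). In these totals 3 reads are 0.16, 0.044, 0.338 and 0.0412 CPM. Log2 ratios used 10 CPM added to each side, a gene was measured if its 4 class values averaged 5 CPM or more, and 2-fold was the limit for a call. Detection was counted at 5 of 100000 drawn reads. No caller of doublets was run. Leaving out cells with over 1.5 times the median number of genes was 1 of the alternatives. It removed none of the 13 and 63 hybrid or 8 and 64 luminal cells compared, so it says nothing about wells with more than 1 cell. With no animal named, each gate is 1 sample, no test was made, and intervals (Clopper-Pearson for shares, Poisson for levels, 95%) cover counting error only. The Poisson intervals treat reads as independent, which amplified reads are not.

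The cells and gene lists were chosen with earlier results of these data known. Genes named in the text were, per gate, the 10 highest and 10 lowest ratios among measured genes with an official symbol, at least 50 CPM and detection in 25% of cells on the higher side and a share at least 20 points above the other side. To these were added the 10 highest and up to 10 lowest genes shared by both gates outside the cycle lists, up to 4 genes per list with the largest ratios at 50 CPM, the 6 markers and a fixed set of lineage and cycle genes. Other list members named beside them, such as Pole2, Brca1, Chek1, Chek2 and Atm, were chosen after their values were seen. Some genes that the rule names are not reported here.

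Alternatives changed the marker level, the number of markers, the cell filters, thinning, the CPM added, the filter on low values, the scaling (TMM or median of ratios in edgeR 4.0.16, R 4.3.3), single cells and background reads of negative wells. Leaving out cells with immune or erythroid markers was chosen after seeing the data. The remaining steps used Python 3.11.15, numpy 2.4.6, pandas 2.3.3, scipy 1.17.1 and matplotlib 3.10.9, and the calculations were tested on simulated data.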

Additional observations from a re-analysis of the deposited data

Results flagged for a closer look

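Among 11 features of the 8 luminal cycling cells, 2 had a cell far from the others, with a gap to the next cell divided by the range above the critical value of 0.526. Chance gives this in about 1 of 20 groups. Luminal cell 1 had 2.95% mitochondrial reads, against 2.12% in the next cell and a median of 1.99% (gap over range 0.62). Luminal cell 20 had 29413 CPM of alveolar and milk genes, against 11864 CPM in the next cell and a median of 8471 CPM (0.602).

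Of the named genes, 9 were at least 2-fold apart in opposite directions in the gates, and the difference between gates was not tested. Most of these opposites rest on 1 cell: without the cell holding most of a gene's reads in each class, the luminal ratios of Csn3, Aldh1a3, Oasl2, Acadsb and Kcnh1 were below 0, and Snai2 in the luminal (0.76) and Wnt5a in the hybrid gate (0.70) came under 2-fold. The other 2, Cited1 and Cdkn2d, stayed opposite at 2-fold. Csn3 (kappa-casein) had a log2 ratio of cycling over non-cycling cells of −1.05 in the hybrid and 1.29 in the luminal gate. Aldh1a3, a retinaldehyde dehydrogenase of luminal progenitors, had −1.99 and 2.04, from 8.68 CPM in cycling and 64 CPM in non-cycling hybrid cells and 304.5 and 66.6 CPM in luminal cells. Wnt5a, a noncanonical Wnt ligand, had 1.18 and −1.37, and Cited1, a transcriptional coactivator of hormone-sensing cells, 1.70 and −1.04. Snai2 (Slug), a transcription factor of basal cells, had −1.71 and 1.38, and Oasl2, an interferon-induced gene, −2.47 and 1.35. Acadsb, a mitochondrial acyl-CoA dehydrogenase, had −2.40 and 1.05, Kcnh1 −2.86 and 1.35, and Cdkn2d, an inhibitor of CDK4 and CDK6, 1.27 and −1.58.

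Wells with many cells entered no comparison. Each held reads of 1 of the 6 cycle markers and 0 of the other 5, and the 5 negative wells held 0 of all 6. There were 20 reads of Birc5 (8.08 CPM) in ablated hybrid, 24 of Top2a (6.83 CPM) in ablated luminal, 4 of Mki67 (1.76 CPM) in ablated basal, 28 of Top2a (27.9 CPM) in WT luminal and 1 of Mki67 (0.35 CPM) in WT basal cells. A well with many cells averages over them, so the 50 CPM used for single cells is no measure of these levels. Summed over cycling cells, the 6 markers came to 813 CPM in the hybrid and 1599 CPM in the luminal gate. In non-cycling cells they came to 4.91 and 2.92 CPM. Cdk1 and Mki67 had 0 reads in both the ablated hybrid and the ablated luminal many-cell well. These wells thus held few marker reads beside cycling shares of 15.3% and 10.5%, and the reason was not tested.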

How the results depend on the processing

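The number of cycling cells was 10 to 13 in the hybrid and 7 to 8 in the luminal gate over 9 alternatives. Over 17 alternatives the genes at least 2-fold higher numbered 528 to 1704 (hybrid) and 621 to 1880 (luminal), and those lower 905 to 1751 and 2067 to 3399. With 1 CPM added in place of 10, 1704 hybrid genes were higher and 1751 lower, 3399 luminal genes were lower, the median of origin licensing and fork genes was 2.30 (hybrid) and 3.12 (luminal), and that of mitotic kinases 4.60 (luminal). Without the top cell of each class, 528 hybrid and 621 luminal genes were higher, the luminal medians were 2.03 for mitotic kinases and −0.957 for luminal keratin genes, and the median of all genes was −0.192 (hybrid) and −0.559 (luminal), since this removes 1 of 8 or 13 cells from one side and 1 of 63 or 64 from the other. It reversed the luminal ratios of Csn3 (−2.63), Aldh1a3 (−0.61), Oasl2 (−1.77), Acadsb (−0.34), Rbpj (−0.79, against 1.52) and Kcnh1 (−0.25). Over all alternatives, 24 of 104 hybrid and 26 of 135 luminal genes with a 2-fold ratio came under 2-fold somewhere. The 6 lists of replication and mitosis genes kept positive medians under each of the 17 alternatives, at 0.862 or more in the hybrid and 1.39 or more in the luminal gate. The limit on the number of genes left the compared cells unchanged, so it could not move these medians. No paired analysis was possible because no result comes from a test between groups of samples. With 8 luminal cycling cells, genes carried by a few cells could not be compared.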

Other observations

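Few genes of energy supply differed by 2-fold. The 14 glycolysis genes had a median ratio of 0.26 in the hybrid gate (0 at least 2-fold higher or lower, single genes from −0.15 to 0.98) and 0.50 in the luminal gate (2 higher and 0 lower, −0.68 to 1.05), beside 9.61% and 12.6% of all genes higher. Ldha (lactate dehydrogenase A) had 1136 CPM in hybrid cycling cells, against 849 CPM in non-cycling cells, and 1684 CPM in luminal cycling cells, against 823 CPM in non-cycling cells. Tpi1 (triosephosphate isomerase) had ratios of 0.98 and 0.84. The 16 genes of the respiratory chain and ATP synthase had medians of 0.25 and 0.57 with 1 gene 2-fold higher in each gate, and Cyc1, the cytochrome c1 subunit, had 1.08 and 0.99 (0.95 and 0.75 without the top cell of each class). In the hybrid gate Cyc1 ran from 1 to 1089 CPM in cycling cells (median 627), against 0.97 to 871 CPM in non-cycling cells (median 159.6). Dkc1, the pseudouridine synthase of the nucleolus, had 1.24 and 1.94, and 0.49 and 1.32 without the top cells, as hybrid cell 1 held 57.1% of its reads in cycling cells. Nolc1, a nucleolar chaperone, had −0.08 and 2.22, and −0.57 and 1.6 without the top cells.

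The unfolded protein response list had medians of 0.32 in the hybrid gate, with 2 of 14 genes at least 2-fold higher, and −0.46 in the luminal gate, with 4 of 14 lower. Over all genes 9.61% were higher in the hybrid and 20.3% lower in the luminal gate, where the median was −0.14. Hspa5 (BiP), the main chaperone of the endoplasmic reticulum, had 1886 CPM in hybrid cycling cells, against 1707 CPM in non-cycling cells, and 1019 CPM in luminal cycling cells, against 2765 CPM in non-cycling cells. Herpud1, Ddit3 and Xbp1 of the same response had luminal ratios of −1.72, −1.95 and −1.16. Interferon genes had medians of −0.67 and −0.50. Immediate early genes, which tissue dissociation can raise, summed to 10286 CPM in hybrid cycling cells, against 14891 CPM in non-cycling cells, and to 10132 CPM in luminal cycling cells, against 12578 CPM in non-cycling cells. Genes of the EGFR family and its ligands had medians of −0.36 and −0.35, Notch genes 0.04 and −0.07, and Wnt genes −0.13 and −0.72. Wnt10a, a Wnt ligand of the epithelium, had 139.8 CPM in hybrid cycling cells, against 32.7 CPM in non-cycling cells. The differences between gates were not tested.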
